A study of Mus musculus with 18 samples.

Results

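The small nucleolar RNA (snoRNA) and small Cajal body RNA (scaRNA) genes of Neuro2A cells, a mouse neuroblastoma line, were examined in a pulldown experiment with biotinylated *miR-92b* and its controls. As the study describes it, streptavidin beads collected the biotinylated miRNA and its bound RNA from lysates of nuclei or whole cells. A locus was taken when one of its gene symbols started with Snora, Snord or Scarna followed by a digit. This gave 124 loci with 141 snoRNA or scaRNA symbols, among 168136 loci in all and 52179 loci with a symbol. The 18 samples came from wild-type Neuro2A cells in 6 groups, from control, Scr and *miR-92b*, with 3 nuclear samples (from isolated nuclei) and 3 whole cell samples for each. Scr cells received a biotinylated scrambled mimic and *miR-92b* cells the biotinylated miRNA mimic, both at 25 nM, and control cells were untransfected, as the study describes them. The samples represent 1 cell line and a transfected amount of mimic. The labels do not say whether samples came from separate cultures, so that p-values measure the spread between these samples only. Libraries were made from RNA held on oligo-dT beads, which select RNA with a poly(A) tail, and then fragmented.

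SnoRNAs are short RNAs that guide the chemical modification of other RNAs, mostly ribosomal RNA in the nucleolus. Box C/D snoRNAs direct 2′-O-methylation and box H/ACA snoRNAs direct pseudouridylation, and scaRNAs do the same for spliceosomal RNAs in Cajal bodies. Most mammalian snoRNAs are cut out of introns of a host gene, often one for a ribosomal protein, a translation factor or a noncoding RNA, and as mature RNAs they carry no poly(A) tail.

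In the deposited tables the snoRNA loci fell into 3 kinds. There were 57 loci that hold a snoRNA or scaRNA symbol alone, 7 that hold 1 together with other small RNA genes only, and 60 in which it is joined with a longer gene in 1 locus with 1 value. Of the 60 joined loci, 21 were joined with a ribosomal protein gene (*Rack1*, a protein of the small ribosomal subunit, included), 27 with another protein-coding gene and 12 with a long noncoding RNA gene. By name, 95 symbols belonged to box C/D snoRNAs, 37 to box H/ACA snoRNAs and 9 to scaRNAs. All were found in GENCODE release M21 (GRCm38), with annotated lengths from 64 to 414 nucleotides (nt) and a median of 94 nt.

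The sequences below are those of the mimicked miRNA and of the members on which the results turn. The first is the mature miRNA from RefSeq (GRCm38.p6, chr3:89227126-89227147, minus strand), with the seed, bases 2 to 8, in capitals.
mmu-miR-92b-3p: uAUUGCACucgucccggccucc
The 3 loci with a scaRNA alone that had reads follow, from GENCODE M21, 5′ to 3′. *Scarna2* (chr3:108554338-108554751, minus strand, not within another annotated gene) guides modification of U2 spliceosomal RNA. Its last 300 of 414 bases are shown (chr3:108554338-108554637), with the box D motif CTGA in capitals.
Scarna2: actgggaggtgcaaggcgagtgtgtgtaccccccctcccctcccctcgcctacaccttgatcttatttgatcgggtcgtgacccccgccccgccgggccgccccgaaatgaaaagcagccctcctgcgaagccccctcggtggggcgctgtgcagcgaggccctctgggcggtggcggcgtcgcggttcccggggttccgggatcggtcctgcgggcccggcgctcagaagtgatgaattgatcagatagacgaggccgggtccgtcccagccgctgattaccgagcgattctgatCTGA
*Scarna6* (chr1:87784556-87784820, plus strand, in an intron of *Atg16l1*) is shown whole, with the box C motif TGATGA and the box D motif CTGA in capitals.
Scarna6: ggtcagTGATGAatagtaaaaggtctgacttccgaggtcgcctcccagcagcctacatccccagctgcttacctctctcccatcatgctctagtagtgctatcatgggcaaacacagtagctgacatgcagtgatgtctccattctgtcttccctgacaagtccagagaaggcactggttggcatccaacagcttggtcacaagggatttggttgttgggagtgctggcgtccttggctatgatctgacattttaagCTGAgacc
*Scarna13* (chr12:105031075-105031349, minus strand, in an intron of the noncoding RNA gene *Snhg10*) is shown whole. Capitals mark a match to the *miR-92b* seed, GTGCAAT from base 118, and the ACA of a box H/ACA RNA near the 3′ end.
Scarna13: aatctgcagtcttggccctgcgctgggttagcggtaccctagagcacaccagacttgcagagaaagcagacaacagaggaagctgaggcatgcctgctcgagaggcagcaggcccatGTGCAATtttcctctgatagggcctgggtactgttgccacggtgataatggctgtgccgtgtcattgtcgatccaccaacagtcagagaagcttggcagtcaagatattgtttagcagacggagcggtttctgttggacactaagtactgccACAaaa
*Snord14e* and *Snord35a*, which the study names, and *Snord14c*, a copy beside *Snord14e*, are box C/D RNAs of far shorter length, given to show their size and boxes. CTGA is in capitals, as is TGATGA in *Snord14c* and *Snord14e*. The first 20 bases of *Snord35a* do not hold TGATGA.
Snord14c: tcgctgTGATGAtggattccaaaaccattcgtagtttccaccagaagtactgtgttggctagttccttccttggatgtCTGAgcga
Snord14e: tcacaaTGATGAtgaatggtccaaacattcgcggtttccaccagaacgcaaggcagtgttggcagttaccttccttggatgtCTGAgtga
Snord35a: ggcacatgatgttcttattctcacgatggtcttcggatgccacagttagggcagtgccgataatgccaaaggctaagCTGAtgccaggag
*Snord14c* and *Snord14e* lie at chr9:40803583-40803668 and chr9:40804748-40804837, on the plus strand, and overlap an annotated exon of *Hspa8*. *Snord14c* differs from *Snord14d* at 2 of 86 bases. *Snord35a* lies at chr7:45126346-45126435, on the minus strand, in an intron of *Rpl13a*.

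The boxes were frequent where the family names place them. CTGA occurred in the last 20 bases of 94 of 95 box C/D members (98.9%), and TGATGA in the first 20 bases of 66 of them (69.5%). ACA stood 3 bases before the 3′ end in 31 of 37 box H/ACA members (83.8%). Over all 141 members these shares were 72.3%, 49.6% and 23.4%, and over the 1418 other snoRNA and scaRNA genes of the annotation they were 31.1%, 18.5% and 18.9%. A match to the *miR-92b* seed, GTGCAAT on the sense strand, was found in 4 of 141 members (2.84%), namely *Scarna13*, *Snora65*, *Snora70* and *Snora81*, against 22 of the 1418 other genes (1.55%). None of the 95 box C/D members held it. A match is a description of the letters and not a binding site.

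Samples held 3752991 to 22920037 reads on loci with a symbol. The nuclear RNAs *Malat1*, *Neat1* and *Kcnq1ot1* were higher in nuclear samples (log2 fold changes 1.08, 1.06 and 0.98), the cytoplasmic mRNAs *Gapdh*, *Actb*, *Eef1a1* and *Tubb5* were lower (−2.35, −2.15, −3.53 and −2.75), *Meg3* did not pass the test (1.65, adjusted p = 0.15, limma) and *Miat* was too low to test. Of 9 sympathetic neuroblastoma genes 8 were tested, and of 3 neuronal genes *Stmn2* and *Gap43* were tested. Of 8 markers of immune, glial, endothelial and fibroblast cells 2 passed the filter on low values (*Gfap* and *Pecam1*), and the highest value of any of the 8 in a sample was 77.4 normalized counts. Whole cell *miR-92b* replicate 3 stood apart. In it 4.51% of reads lay on loci without a symbol, against 8.06% to 11.3% in the other whole cell samples, and 3.51% of its reads on loci with a symbol lay on joined snoRNA loci, against 1.49% to 2.43%. Counts and leading values were also computed without it, a choice made after seeing the data for the joined share and for the counts by what shares the locus. Nuclear Scr replicates 2 and 3 were the highest nuclear samples at several joined loci. At *Rps2/Snora64* they had 1976 and 2588 normalized counts, against 670 to 1020 in the other nuclear samples. The fit was not repeated without both.

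Reads on loci with a snoRNA or scaRNA alone came from 3 scaRNA genes. The other 54 of these 57 loci were listed at 0 in all 18 samples. They were 64 to 205 nt long, while *Scarna6*, *Scarna13* and *Scarna2* were 265, 275 and 414 nt long. With 127207442 reads on loci with a symbol over all samples, a count of 0 allows up to 3 reads, or 0.0236 RPM (RPM being the usual per-million scale, here relative to reads on loci with a symbol), and this limit covers counting error only.

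Among loci of other single genes the share with reads in any sample was also lower in the classes of shorter genes. It was 5.51% up to 100 nt (104 of 1889 loci), 7.71% above 100 and up to 200 nt (298 of 3865), 19.3% above 200 and up to 300 nt, 33.6% above 400 and up to 1000 nt, and 60.4% above 1000 nt. Other snoRNA genes had reads in 70 of 1247 loci (5.61%).

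Most snoRNAs listed at 0 lay in a gene whose locus had reads. Of the 54 loci at 0, 51 lay in an intron of an annotated gene. By the first name listed for the host, 46 had a host locus with a mean of at least 10 normalized counts. This lookup missed *Rpl13a*, listed second for *Snord35a*, *Snord34* and *Snord32a*, whose locus had 290 to 6819 normalized counts. The 29 different host loci found by that lookup had means from 0 to 11050 normalized counts, with a median of 884.8. *Snord37* was at 0 beside the highest of these hosts, *Eef2*, which encodes translation elongation factor 2, and the 17 *Snord116* copies were at 0 within *Snhg14*, which shares a locus with *Snrpn* (mean 1019 normalized counts). Reads of *Snhg14* and of *Snrpn* cannot be told apart in that locus. *Snord35a*, in an intron of the ribosomal protein gene *Rpl13a*, was at 0 as well. *Snord13*, which has a gene of its own and acts in ribosomal RNA acetylation, was likewise at 0.

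**Figure D1:**
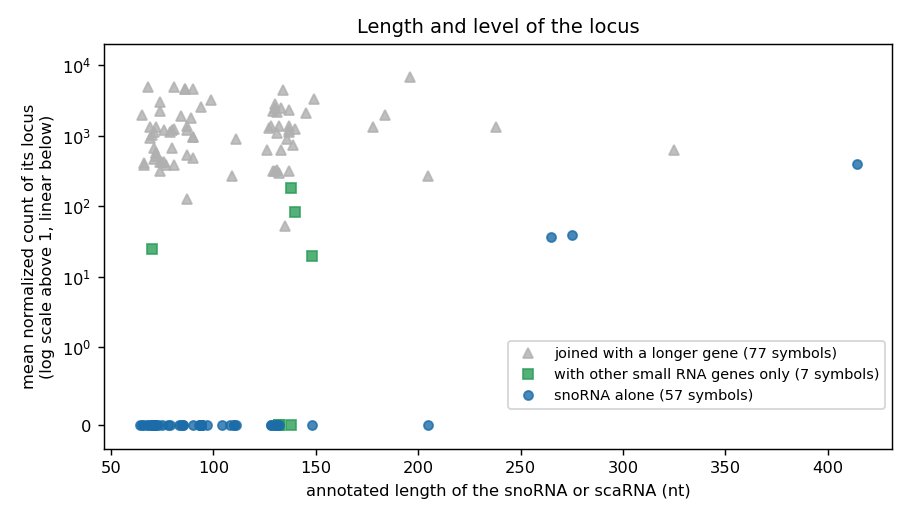
Annotated length in nucleotides (x axis) and mean normalized count of the locus over 18 samples (y axis, logarithmic above 1 and linear below) for each of 141 snoRNA and scaRNA symbols, by the kind of locus. The 54 symbols of loci with a snoRNA alone and no reads lie at 0 and at or below 205 nt, and the 3 with reads are the longest of that kind.

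The deposited values also show which length the authors' software used for each locus. The normalized count divided by the FPKM (fragments scaled by transcript length and mapped fragments), scaled per sample to 224 reference loci of at least 1000 nt, gives an implied length. It was 23.1 nt for *Scarna6* (median of 14 samples with reads) and 180 nt for *Scarna2* (18 samples), which is 242 nt and 234 nt below the annotated length. For *Scarna13* it ranged from 34.4 to 1164 nt with a median of 719 nt, so that in most samples its value does not belong to a 275 nt RNA alone. The region listed for *Scarna13* is chr12:105029281-105032386, with 2 transcription starts. The 4 loci of small RNA genes with reads implied still longer RNAs, with medians of 909 nt for *Mir1843b/Scarna3a*, 882 nt for *Gm22711/Snord104*, 4750 nt for *Gm22661/Snora47* and 1135 nt for *Mir5136/Snora57*, whose snoRNAs or scaRNAs are 70 to 148 nt long.

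Of the members higher in nuclear samples, *Scarna2* differed most clearly between compartments. Its normalized counts were 438, 535 and 1133 in nuclear control, 366, 871 and 849 in nuclear Scr, and 619, 741 and 675 in nuclear *miR-92b* samples. In whole cell samples they were 107, 121 and 114 in control, 121, 48.6 and 128 in Scr, and 69.3, 70.0 and 89.2 in *miR-92b*. The 9 nuclear values all lay above the 9 whole cell values. The nuclear mean was 692 ± 238 (SD, n = 9) against 96.5 ± 28.3 (n = 9), 7.17-fold higher. The log2 fold change was 2.81 (SE 0.23, adjusted p = 1.8e-09, limma across 15579 loci), and 2.85 without whole cell *miR-92b* replicate 3. Within treatments it was 2.49 in control (adjusted p = 0.00013, limma), 2.81 in Scr (adjusted p = 0.00031) and 3.14 in *miR-92b* (adjusted p = 9.4e-06), and it was the only tested member higher in nuclear samples in each of the 3. As these are values relative to the other RNA of each sample, more *Scarna2* and less of other RNA in a nuclear sample cannot be told apart, nor can fewer cells and less RNA per cell.

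*Scarna6* and *Scarna13* were low and uneven. *Scarna6* had 26, 45.7 and 96.5 normalized counts in nuclear control, 10.7, 193 and 0 in nuclear Scr and 36.9, 66.7 and 38.6 in nuclear *miR-92b* samples, against 24.7, 43.2 and 3.90, 0, 0 and 0.52, and 5.4, 55.7 and 0 in the matching whole cell groups. These values overlapped, with reads in 8 of 9 nuclear and 6 of 9 whole cell samples. The log2 fold change was 2.57 (SE 0.94, adjusted p = 0.040, limma), and it was no longer past the threshold in 16 of 26 alternative settings (adjusted p from 0.0010 to 0.093 over the alternatives). Without whole cell *miR-92b* replicate 3 the adjusted p was 0.082. The host *Atg16l1*, an autophagy gene, had 419 to 577 normalized counts in nuclear and 217 to 533 in whole cell samples (log2 fold change 0.45, SE 0.16, adjusted p = 0.039).

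*Scarna13*, which holds the seed match, had 46.2, 32.3 and 74.4 normalized counts in nuclear control, 70.1, 8.06 and 103 in nuclear Scr and 50.5, 25.9 and 27.0 in nuclear *miR-92b* samples. In whole cell samples it had 17.6, 11.2 and 42.1 in control, 118, 0 and 12 in Scr and 24.3, 32.8 and 0 in *miR-92b*. All groups overlapped. The log2 fold change between compartments was 1.61 (SE 0.86, adjusted p = 0.16, limma), and 2.17 (adjusted p = 0.048) without whole cell Scr replicate 1, which held its highest value.

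**Figure D2:**
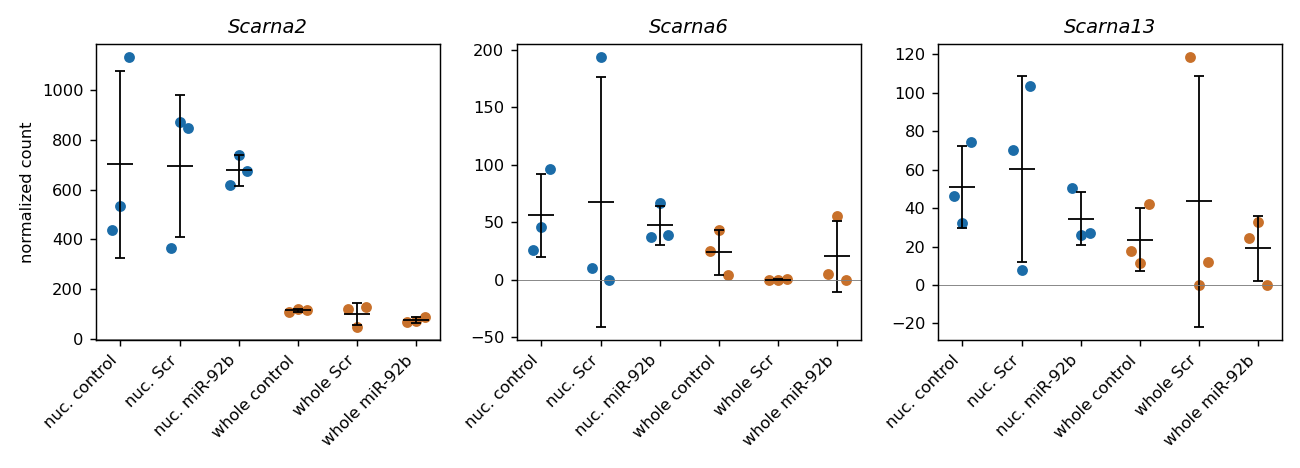
Normalized counts (y axis, linear, scaled per gene) of *Scarna2*, *Scarna6* and *Scarna13* in the 6 groups, with 3 points per group for the samples and a black bar with whiskers for the mean ± SD. For *Scarna2* all nuclear samples (366 to 1133) lie above all whole cell samples (48.6 to 128), while for the other 2 genes the compartments overlap.

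Loci with a snoRNA or scaRNA alone took 78.0 to 220 RPM in nuclear samples (median 128, mean 137 ± 45.1 SD, n = 9) and 8.32 to 41.1 in whole cell samples (median 25.0, mean 23.5 ± 9.67, n = 9). The compartments did not overlap, and the means differed 5.82-fold (two-sided exact permutation test, p = 4.1e-05, 5.5e-05 after adjustment over 4 such measures). *Scarna2* gave 84.9% of these reads, and without it the difference between the means was 10.7 RPM (exact p = 0.0055) in place of 113. Within a treatment, 3 samples against 3 cannot go below p = 0.1 in an exact permutation test, and this value was reached in control, Scr and *miR-92b*. With the 7 loci of small RNA genes included, the means were 205 ± 50.9 and 60.7 ± 18.7 RPM (n = 9 each, exact permutation p = 4.1e-05).

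Joined loci moved the other way as a whole. They took 0.85% to 1.08% of reads in nuclear samples (mean 0.92% ± 0.074) and 1.49% to 3.51% in whole cell samples (mean 2.11% ± 0.60, n = 9 each, exact permutation p = 4.1e-05). Without whole cell *miR-92b* replicate 3 the whole cell mean was 1.93% ± 0.31 (n = 8, exact permutation p = 8.2e-05). Thinned to the 3752991 reads of the shallowest sample, 2.89 ± 0.33 of the loci with a snoRNA alone had reads in nuclear and 2.36 ± 0.85 in whole cell samples (exact permutation p = 0.089, n = 9 each), a difference that did not pass the test.

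**Figure D3:**
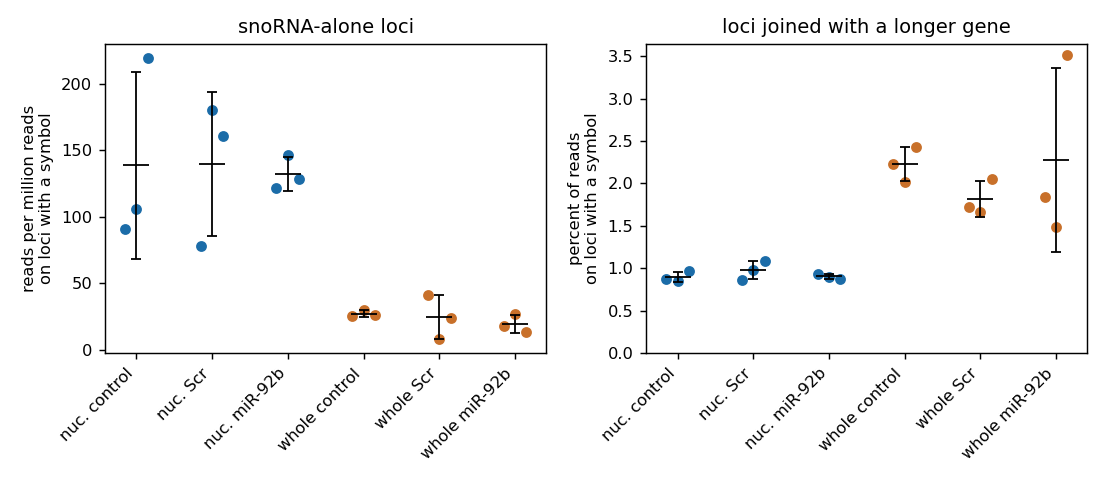
Reads on loci with a snoRNA or scaRNA alone, in RPM (left), and percent of reads on loci joined with a longer gene (right), by group, with 3 points per group for the samples and mean ± SD as a bar with whiskers. On the left nuclear samples lie at 78.0 to 220 and whole cell samples at 8.32 to 41.1, and on the right nuclear samples lie at 0.85% to 1.08%, below all whole cell samples.

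Of the 124 loci, 67 passed the filter on low values (a mean of at least 10 normalized counts), namely 3 with a scaRNA alone, 4 with other small RNA genes and all 60 joined loci. Over the mean of the 3 treatments 13 were higher and 34 lower in nuclear samples, where 15.3% of all loci tested were higher and 15.8% lower. Their median log2 fold change was −0.53 against 0.14 for all 15579 loci. Without whole cell *miR-92b* replicate 3, 11 were higher and 33 lower. On FPKM 1 was higher, *Scarna2*, and 40 were lower, and the shares of all loci on FPKM are not given here.

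The direction went with the symbols listed for the locus. All 21 loci joined with a ribosomal protein gene were lower in nuclear samples, with log2 fold changes from −3.25 to −1.09 and a median of −2.34, and 19 of these were lower in each treatment on its own. Of 27 joined with another protein-coding gene 6 were higher and 10 lower (median −0.09), and of 12 joined with a long noncoding RNA gene 3 were higher and 3 lower (median −0.06). The 4 loci of small RNA genes and the 3 with a scaRNA alone all had values above 0, from 0.70 to 2.81, and 4 of these 7 passed the test. Without whole cell *miR-92b* replicate 3, 2 of the 7 passed it, all 21 loci with a ribosomal protein gene were still lower (median −2.17), and 6 and 9 loci with another protein-coding gene were higher and lower. The kinds of locus go by the listed symbols. Implied lengths were longer than the snoRNA or scaRNA at the 4 loci of small RNA genes and, in most samples, at *Scarna13*. The reads of a joined locus cannot be divided between the snoRNA and the host mRNA from these tables.

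**Figure D4:**
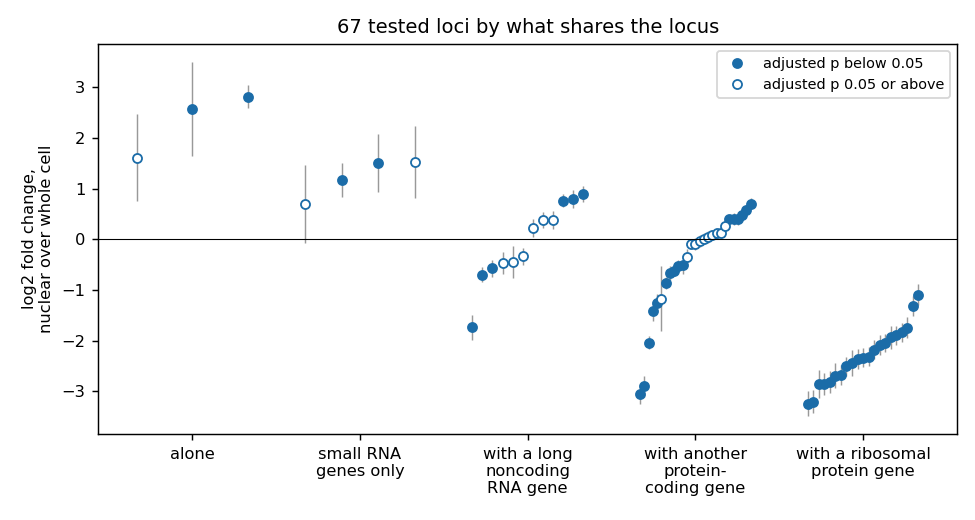
Log2 fold change of nuclear over whole cell samples, over the mean of the 3 treatments (y axis), for the 67 tested loci by what shares the locus (x axis), with whiskers for 1 standard error and filled points for an adjusted p below 0.05 (limma). The 21 loci with a ribosomal protein gene all lie below −1 and the 7 loci that list no longer gene all lie above 0.

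Among joined loci the lowest in nuclear samples was *Rplp2/Snora52*, with the gene for a protein of the ribosomal stalk. Its normalized counts ran from 109 to 496 in nuclear samples (median 175) and from 862 to 4058 in whole cell samples (median 1805). The compartments did not overlap, and the log2 fold change was −3.25 (SE 0.24, adjusted p = 6.7e-10, limma), and −3.05 without whole cell *miR-92b* replicate 3. *Rpl23a/Snord42b* (−2.86), *Rpsa/Snora62* (−2.86), *Rps2/Snora64* (−2.83) and *Rpl32/Snora7a* (−2.69), all with a ribosomal protein gene, likewise showed no overlap, and for *Rack1/Snord95/Snord96a* the value was −2.32. Absence of overlap was a condition of the rule that named loci by fold change, and is not a separate result. *Tpt1/Snora31*, with the gene for the abundant translationally controlled tumour protein, had 367 to 919 normalized counts in nuclear and 2700 to 9654 in whole cell samples (−3.06, SE 0.20, adjusted p = 1.7e-10), and −2.87 without that sample.

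The joined loci with *Snord14* copies, of which the study names *Snord14e*, were lower in nuclear samples as well. *Hspa8/Snord14c/Snord14d/Snord14e*, with the gene for the constitutive heat shock protein 70, had 627 to 1945 normalized counts in nuclear samples (median 836) and 4405 to 18955 in whole cell samples (median 6941). The groups did not overlap, with a log2 fold change of −2.91 (SE 0.21, adjusted p = 4.1e-10, limma), and −2.70 without whole cell *miR-92b* replicate 3, which had the highest value. *Rps13/Snord14a* had 227 to 474 against 270 to 1247 normalized counts, which overlapped, with a log2 fold change of −1.09 (SE 0.20, adjusted p = 0.00025), and −0.91 without that sample. It passed the test in control (−1.71, adjusted p = 0.0023) and not in Scr (−0.78, adjusted p = 0.19) or *miR-92b* samples (−0.78, adjusted p = 0.15), and the differences between treatments were not tested.

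Higher joined loci changed less. *2700038G22Rik/Snord93*, a noncoding host, had 524 to 688 normalized counts in nuclear and 210 to 513 in whole cell samples (log2 fold change 0.89, SE 0.16, adjusted p = 0.00013, limma). *Snhg15/Snora9*, a small nucleolar RNA host gene, had 556 to 1149 against 341 to 516 (0.76, SE 0.13), and *2410002F23Rik/Snord88a/Snord88c* had 995 to 1308 against 482 to 864 (0.71, SE 0.12). The compartments did not overlap in any of these 3, as the rule that named them required. *Gas5*, a long noncoding RNA that hosts *Snord47*, *Snord78* and *Snord80*, was named after its values were seen and was also higher (0.79, SE 0.18, adjusted p = 0.0013), with overlap. *Matr3/Snhg4/Snora74a*, joined with the gene for a nuclear matrix protein and read most among the higher loci, had 6673 to 8971 against 5308 to 7200 normalized counts (0.39, SE 0.09, adjusted p = 0.0025). The noncoding hosts lower in nuclear samples, also named after their values were seen, were *2410006H16Rik/Snord49a* (−1.74), *Snhg5/Snord50a/Snord50b* (−0.70) and *Zfas1/Snord12* (−0.58).

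Further loci that held a scaRNA were read at intermediate or high levels. *Mir1843b/Scarna3a* had 77.7 to 180 normalized counts in nuclear and 0 to 115 in whole cell samples (log2 fold change 1.51, SE 0.57, adjusted p = 0.048, limma). It lost the call in 20 of 26 alternative settings, with adjusted p up to 0.13, and the value was 0.92 (adjusted p = 0.055) without whole cell *miR-92b* replicate 3, where it was at 0. *Dcaf5/Scarna3b* had 741 to 974 against 486 to 807 (0.47, SE 0.12, adjusted p = 0.0045). *Ncapd2/Scarna10*, with a condensin subunit gene, had 511 to 747 against 512 to 839 normalized counts and did not pass the test (−0.09, SE 0.12, adjusted p = 0.59).

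The count and the FPKM of joined loci did not move alike. For 59 joined loci with at least 20 reads in every sample the median log2 fold change was −0.67 on normalized counts and −1.45 on FPKM, against 0.03 and −0.13 for 8177 other loci. The implied length was longer in nuclear samples in 43 of the 59, with a median log2 difference of 0.31, against −0.04 for the other loci. It was largest for the 12 loci with a noncoding host, at 0.72, where the median log2 fold change was −0.06 on normalized counts and −1.19 on FPKM. For *Snhg15/Snora9* the log2 fold change was 0.76 on normalized counts and 0.03 on FPKM (adjusted p = 0.91, limma), whereas for *Scarna2* both were 2.8.

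Each treatment was also compared on its own. In control 4 of the 67 were higher and 31 lower in nuclear samples, where 2.94% and 6.91% of all loci tested were. In Scr 1 was higher and 26 lower, where 1.46% and 3.7% of all loci were, and in *miR-92b* 7 were higher and 28 lower, where 6.66% and 6.63% were. A model of the 2 *miR-92b* groups alone gave 2 higher and 18 lower, and without whole cell *miR-92b* replicate 3 the full model gave 4 higher and 26 lower. In all, 25 loci were lower in each of the 3 treatments. The share of all loci tested that did so is not given here, and it cannot exceed the 3.7% lower in Scr. For the model of 2 groups and the fit without 1 sample the shares of all loci are not given either.

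Whether *miR-92b* collected other snoRNA loci than Scr was compared in each compartment. By limma none of the 67 loci passed in nuclear or in whole cell samples, where 0.0% and 0.00642% of all loci tested did. An unadjusted p below 0.05 was given to 3 loci in nuclear and 5 in whole cell samples by limma, 4 and 8 by edgeR and 2 and 6 by DESeq2, and neither of the last 2 tools called a member after adjustment. Over all loci tested an unadjusted p below 0.05 was given to 4.41% and 9.72% by limma, 1.77% and 7.75% by edgeR and 2.8% and 9.74% by DESeq2, and after adjustment DESeq2 called 1 locus in nuclear and 176 (1.13%) in whole cell samples. The median log2 fold change of the members was −0.05 in nuclear samples against 0.11 for all loci, and 0.21 in whole cell samples against −0.01. Without whole cell *miR-92b* replicate 3 the latter member median was −0.13. In nuclear samples all 21 loci with a ribosomal protein gene lay below 0 for *miR-92b* against Scr (median −0.35). Of all 15579 loci, 9399 lay above 0 there. For Scr against control in nuclear samples all 21 lay above 0 (median 0.46), where 6826 of all loci did. Both comparisons use the same nuclear Scr samples. In whole cell samples 20 of the 21 lay above 0 for *miR-92b* against Scr (median 0.32, replicate 3 of *miR-92b* included), where 7607 of all loci did. None of the 21 was called in these comparisons.

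*Scarna2* differed between *miR-92b* and Scr by a log2 fold change of 0.07 (SE 0.39) in nuclear and −0.27 (SE 0.39) in whole cell samples. *Scarna13*, with its seed match, gave −0.26 (SE 1.5) and −0.29 (SE 1.5), and *Scarna6* 1.83 (SE 1.62) and 2.63 (SE 1.62), none of which passed the test. The other loci with a seed match in the snoRNA differed little and had smaller errors. *Eif4a2/Snora81* gave −0.05 and −0.11 (SE 0.17 each), *Rpl12/Snora65* −0.07 and 0.32 (SE 0.34 each), and *Rpl10/Snora70* −0.47 and 0.21 (SE 0.43 each).

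**Figure D5:**
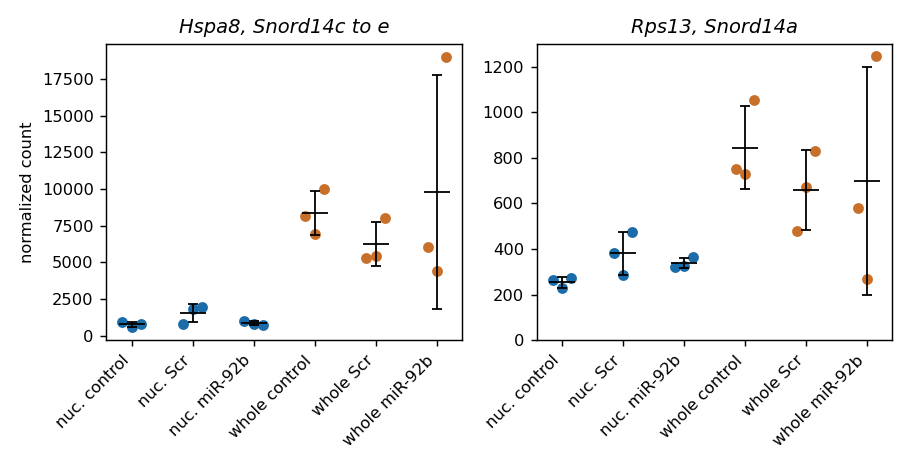
Normalized counts (y axis, linear, scaled per locus) of the joined loci that hold *Snord14c* to *Snord14e* (left) and *Snord14a* (right) in the 6 groups, with 3 points per group for the samples and mean ± SD as a bar with whiskers. In each locus the *miR-92b* and Scr samples of a compartment overlap, and 1 whole cell *miR-92b* sample (replicate 3) is the highest.

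For *Hspa8/Snord14c/Snord14d/Snord14e* the nuclear *miR-92b* values were 1042, 823 and 734 normalized counts, against 836, 1859 and 1945 for Scr and 923, 627 and 807 for control. The log2 fold change over Scr was −0.75 (SE 0.36, unadjusted p = 0.050, adjusted p = 1.0, limma). In whole cell samples *miR-92b* gave 6074, 4405 and 18955 against 5311, 5442 and 8014 for Scr, a log2 difference of 0.38 (SE 0.36), and −0.25 without replicate 3 of *miR-92b*. *Rps13/Snord14a* gave −0.14 and −0.15 (SE 0.35 each) in nuclear and whole cell samples. All these groups overlapped.

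The members with the lowest p rested on few samples. *Rpl23a/Snord42b* had 143, 199 and 115 normalized counts in nuclear *miR-92b* and 105, 471 and 691 in nuclear Scr samples (log2 fold change −1.13, SE 0.47, adjusted p = 1.0, limma), and −1.94 (adjusted p = 0.024) without nuclear Scr replicate 1, when 49 loci in all were called. *Mir1843b/Scarna3a* had 70.2, 20 and 0 in whole cell *miR-92b* and 96.4, 68.9 and 115 in whole cell Scr samples (−3.01, SE 0.99, adjusted p = 0.36), and −4.33 (adjusted p = 0.036) without whole cell *miR-92b* replicate 1, when 77 loci in all were called. *Gm22711/Snord104*, named after its values were seen, had 15.3, 80.0 and 23.6 against 0, 0 and 9.17 (adjusted p = 0.37), without overlap.

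Against control, no member passed either. For *miR-92b* limma called none of the 67 in nuclear (0.0% of all loci tested) or whole cell samples (0.00642%), and none had an unadjusted p below 0.05 by limma, edgeR or DESeq2. Of all loci tested only 0.321% in nuclear and 4.69% in whole cell samples had such a p by limma. By edgeR these shares were 0.122% and 3.37%, and by DESeq2 0.205% and 4.42%. For Scr it called none in nuclear (0.0%) or whole cell samples (0.0%), with 5 and 3 at an unadjusted p below 0.05 (6 and 2 by edgeR, 5 and 3 by DESeq2, with no member called by either). Of all loci tested 5.88% and 5.09% had such a p by limma, 2.71% and 3.97% by edgeR and 3.99% and 5.19% by DESeq2. After adjustment DESeq2 called 37 loci in whole cell samples. The difference between compartments of *miR-92b* against Scr passed for no member (0.00642% of all loci tested), with 8 at an unadjusted p below 0.05 by limma and 12 by each of edgeR and DESeq2, neither of which called a member. Of all loci tested 7.21% had such a p by limma, 5.74% by edgeR and 7.63% by DESeq2, which called 40 loci (0.257%) after adjustment.

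The genes of the snoRNA protein complexes were read from the same fit. Of 22 genes of core proteins, assembly factors and Cajal body proteins 21 were tested over the mean of the 3 treatments. In nuclear samples 5 rose and 3 fell relative to whole cell samples (median log2 fold change −0.18), where 15.3% of all loci tested rose and 15.8% fell. Of the box C/D core, *Nop58*, whose locus also holds *Snord70*, was higher (0.40, SE 0.12), while *Fbl*, the methyltransferase fibrillarin, gave −0.01 (SE 0.11) and *Nop56* 0.26 (SE 0.12, adjusted p = 0.11, limma). On FPKM the *Nop58* locus gave −0.33 (adjusted p = 0.24, limma). Of the box H/ACA core the pseudouridine synthase gene *Dkc1* (−1.04, SE 0.24) and *Nop10* (−1.38, SE 0.48) were lower, *Gar1* was higher (0.59, SE 0.21) and *Nhp2* gave −0.59 (adjusted p = 0.083). Among assembly factors *Znhit6* (0.88), *Nufip1* (0.58) and *Shq1* (0.66) were higher and *Ruvbl2* (−2.01) lower. *Ruvbl2* had 3 loci, of which that with the highest mean was used, and its lowest nuclear value was 0. Neither *Coil*, the gene of the Cajal body protein coilin (−0.69, SE 0.71), nor *Wrap53* (−1.04, SE 0.88), whose protein brings scaRNAs to Cajal bodies, passed the test.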

How the data were processed

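RNA collected from Neuro2A cells was compared in 6 groups of 3 samples, grouped by the sample labels. Per the labels and the study's methods, the authors made stranded libraries from poly(A)-selected RNA, used Trimmomatic 0.30 for trimming, TopHat2 for alignment to GRCm38 (mm10) and Cufflinks for assembly of loci. For TopHat2 and Cufflinks no version is stated here. In the deposited table of normalized counts, a signal, the fragments on each locus were scaled by a factor common to the sample. FPKM, as deposited, is relative to transcript length and mapped fragments. The other deposited comparison tables hold the authors' fold changes, p-values and q-values and were not used. Every sample column was mapped.

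Each of the 635205 values above 0 came out as whole reads (within 0.02 reads or, for large values, the 6 printed digits, 100.0%), so reads were recovered for depth, edgeR and DESeq2. Raw counts had been planned for. As the values are normalized, limma 3.58.1 (R 4.3.3) was the main test, fitted to log2(normalized count + 1) with its variance trend in 1 model of 6 groups, two-sided, Benjamini-Hochberg adjustment and a threshold of 0.05. Fold changes are on that scale. At low loci the added 1 shrinks them, while samples at 0 can enlarge them against a fold of means or medians. *Meg3*, at 0 in the lowest whole cell sample, gave 1.65 although its nuclear median (49.8) lay below its whole cell median (62.8). The test covered 15579 loci with a symbol and a mean of at least 10, and loci without a symbol (4.51% to 15.3% of reads) were left out. Values per sample were compared by exact permutation tests. Alternatives were a pseudocount of 8, no filter (28348 loci), a mean of at least 1 (22562 loci), samples rescaled to the same median, FPKM with a pseudocount of 0.1, only the groups compared, a replicate block, edgeR 4.0.16, DESeq2 1.42.0 and each sample left out. The fit was tested on simulated data.

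Loci were named by rule: loci with a snoRNA alone by mean, up to 8 loci per direction called without overlap, the 5 joined loci with the highest mean, loci of snoRNAs the study names and of numbered relatives of these, Scarna loci with a mean of at least 1, and members called for *miR-92b* or Scr within a compartment, of which there were none. Some loci and genes that met these rules are not reported here, which left 20 named loci, of which 19 were tested. Lists of snoRNA protein genes, compartment markers and cell type markers were used. Members, lists and rules were chosen with earlier results of these data known. Sequences were read from GENCODE M21 transcripts and RefSeq. Region starts in the deposited files count from 0 and were raised by 1.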

Additional observations from a re-analysis of the deposited data

How the results depend on the processing

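Counts of members called stayed within 1.5 times under the alternatives, apart from *miR-92b* nuclear against whole cell samples in a model of those groups alone (20 in place of 35) and *miR-92b* against Scr with 1 sample left out. Over samples left out, 44 to 50 members were called for the mean of the treatments, 28 to 31 in control, 19 to 26 in Scr and 29 to 40 in *miR-92b*, and 0 to 1 for *miR-92b* against Scr in nuclear samples and 0 to 1 in whole cell samples. For the other treatment comparisons the count was 0 throughout. The difference in reads on loci with a snoRNA alone ran from 103 to 121 RPM, and that in the number of such loci at a common depth from 0.36 to 0.64, past the threshold (0.64, exact permutation) only without nuclear Scr replicate 3. On FPKM 1 member was higher and 40 lower in place of 13 and 34, and in *miR-92b* 1 and 33 in place of 7 and 28. A joined locus with a longer implied length has a lower FPKM for the same count. Whether this accounts for the change in calls was not tested. Shares of all loci called on FPKM are not given here. The median of all loci shifted by 0.086 with rescaled samples and by −0.12 on FPKM.

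No pairing of samples by their numbers was seen, though with 3 samples per group this cannot exclude one. The median correlation of deviations was 0.0022 over 45 pairs of the same number (1 of them above 0.1) and −0.0020 over 90 pairs of different numbers. With the replicate number as a block 47 members were called for the mean of the treatments (13 higher and 34 lower), and 35, 28 and 35 in control, Scr and *miR-92b*, with none in the treatment comparisons. The share difference gave p = 0.00025 and the number p = 0.11 in exact tests permuted within replicate numbers.

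Of 19 named loci 10 kept their call and direction in nuclear against whole cell samples under every alternative. On FPKM the sign turned for *Matr3/Snhg4/Snora74a* (−0.078) and *Ncapd2/Scarna10* (0.015), and *Snhg15/Snora9*, *Dcaf5/Scarna3b*, *2700038G22Rik/Snord93* and *2410002F23Rik/Snord88a/Snord88c* lost the call.

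Of 150 recomputed values of *miR-92b* against Scr for 10 results of named loci, 17 changed sign, none of them past the threshold. In nuclear samples *Scarna6* gave −0.45 by edgeR, −0.54 by DESeq2, and −0.030 to 3.77 over samples left out, with the sign turned without Scr replicate 3. *Scarna13* gave 0.14 and 0.42 without Scr replicates 1 and 3 (range −1.35 to 0.42). *Scarna2* gave −0.13 on FPKM, −0.050 by DESeq2, −0.35 without Scr replicate 1 and a value just below 0 without *miR-92b* replicate 2 (range −0.35 to 0.28). *Rps13/Snord14a* gave 0.029 (range −0.33 to 0.029) without Scr replicate 3. In whole cell samples *Scarna13* gave 1.39 without Scr replicate 1 and 1.34 without *miR-92b* replicate 3 (range −2.06 to 1.39). *Hspa8/Snord14c* gave −0.25 (range −0.25 to 0.81) without *miR-92b* replicate 3. *Rps13/Snord14a* gave 0.048 by edgeR, 0.075 by DESeq2 and −0.70 to 0.40 over samples left out, with the sign turned without *miR-92b* replicate 2 or Scr replicate 3. The causes of these changes were not tested. *Scarna6* and *Scarna13* had at most 198 and 135 reads in a sample.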
